A study of Mus musculus with 4 samples.

Results

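Complement is a cascade of plasma proteins that marks and lyses foreign or damaged cells. In the classical route the protease C1r activates the protease C1s, which cleaves C4 and C2. In the alternative route factor B joins C3b. Both routes build enzymes that cleave C3, the protein on which all routes meet. Soluble inhibitors and membrane-anchored regulators hold the cascade back on the body's own cells. Liver makes most of the circulating proteins, but other cells, muscle precursors among them, can make some of their own.

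Described here are 9 complement genes of mouse among the 55416 genes in the deposited transcript files: C3, C4b, C1ra, C1s1, Cfb, Cfi, Serping1, Cd55 and Cd59a. They were taken by name as components and regulators of the cascade; earlier results of these data were known when the list was made. RNA came from C2C12 cells, an established mouse myoblast line, as the cell line field of all 4 libraries gives it; the titles of both K97E libraries read C1C12, and those of both wild-type libraries C2C12. One group of 2 libraries came from cells transfected with K97E lamin A, labelled a mutant of dilated cardiomyopathy, and the other group of 2 from cells transfected with wild-type lamin A. Both groups received 3 µg of DNA with a lipid reagent and were harvested 24 h afterwards, so every library is from cells that were given lamin A DNA. The labels name biological replicates without saying whether these were separate cultures, so p-values reflect the spread among these 4 samples alone, and that spread may be technical. The sources used here do not say what share of cells took up the DNA. In such bulk RNA fewer cells that express a gene and less RNA per cell cannot be told apart.

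The files held between 89600000 and 115600000 estimated reads of 100 bases per library. Levels are in TPM, a measure of transcript abundance that takes library size and transcript length into account, so they may be compared between genes. The myoblast markers Myf5, Des and Cdh15 were well expressed, at 45.2, 414 and 45.2 TPM on average, and 5 of 7 myoblast markers reached the mean of 0.5 TPM needed for testing. Pax7 and Myog, markers of satellite cells and of differentiating muscle, did not exceed 0.0959 TPM in any library. Chrna1, a subunit of the muscle acetylcholine receptor, was the 1 myoblast marker with an unadjusted p under 0.05, at 40.2 and 41.3 TPM with K97E, against 49.8 and 51.8 TPM with wild-type lamin A (limma adjusted p = 0.965). The 7 myoblast markers summed to 532 and 525 TPM with K97E, against 544 and 619.6 TPM with wild-type lamin A, and what part this had in the results below was not tested. Of 10 leukocyte and macrophage markers 3 were tested, Cd14, Cd68 and Lyz2, at 50.3, 4.25 and 1.19 TPM on average. Adgre1 and Tyrobp were at 0 in all 4 libraries and Ptprc did not exceed 0.05 TPM. The 10 leukocyte and macrophage markers summed to 57.6 and 55.4 TPM in the K97E libraries, against 48.3 and 65.3 TPM in the wild-type libraries, most of it Cd14. Of 7 hepatocyte markers none was tested, and their sum lay between 0.394 and 0.587 TPM. Fibroblast markers summed to 1767 and 2132 TPM with K97E, against 1699 and 2347 TPM with wild-type lamin A, most of it Col3a1. Of 6 fibroblast markers 4 were tested. Besides Col3a1 these were Col1a1, Dcn and Pdgfra, at 231, 26.4 and 10.0 TPM on average. Lum was at 0 in all 4 libraries and Thy1 did not exceed 0.061 TPM. Endothelial markers summed to 17.4 and 19.0 TPM with K97E, against 20.7 and 18.2 TPM with wild-type lamin A, most of it Cdh5. The groups overlapped in both sums.

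Complement transcripts ranged from abundant to absent in these myoblasts. Cfb (factor B) led with 287 ± 71 TPM in K97E cells and 407 ± 74 TPM in wild-type lamin A cells (SD, n = 2 each). C1s1 and C1ra came next at 111 ± 5 and 102 ± 14 TPM with K97E and 147 ± 16 and 143 ± 42 TPM with wild-type lamin A, and these neighbours did not differ beyond their spread. C3 followed, then C4b and Cd59a, whose order was not the same in both groups: C4b averaged 6.34 ± 0.75 TPM and Cd59a 8.36 ± 1.81 TPM with K97E, against 10.5 ± 0.96 and 8.75 ± 0.04 TPM with wild-type lamin A (SD, n = 2 each). Serping1 and Cd55 stood lowest among the detected genes. Cfi was at 0 in 3 libraries.

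**Figure D1:**
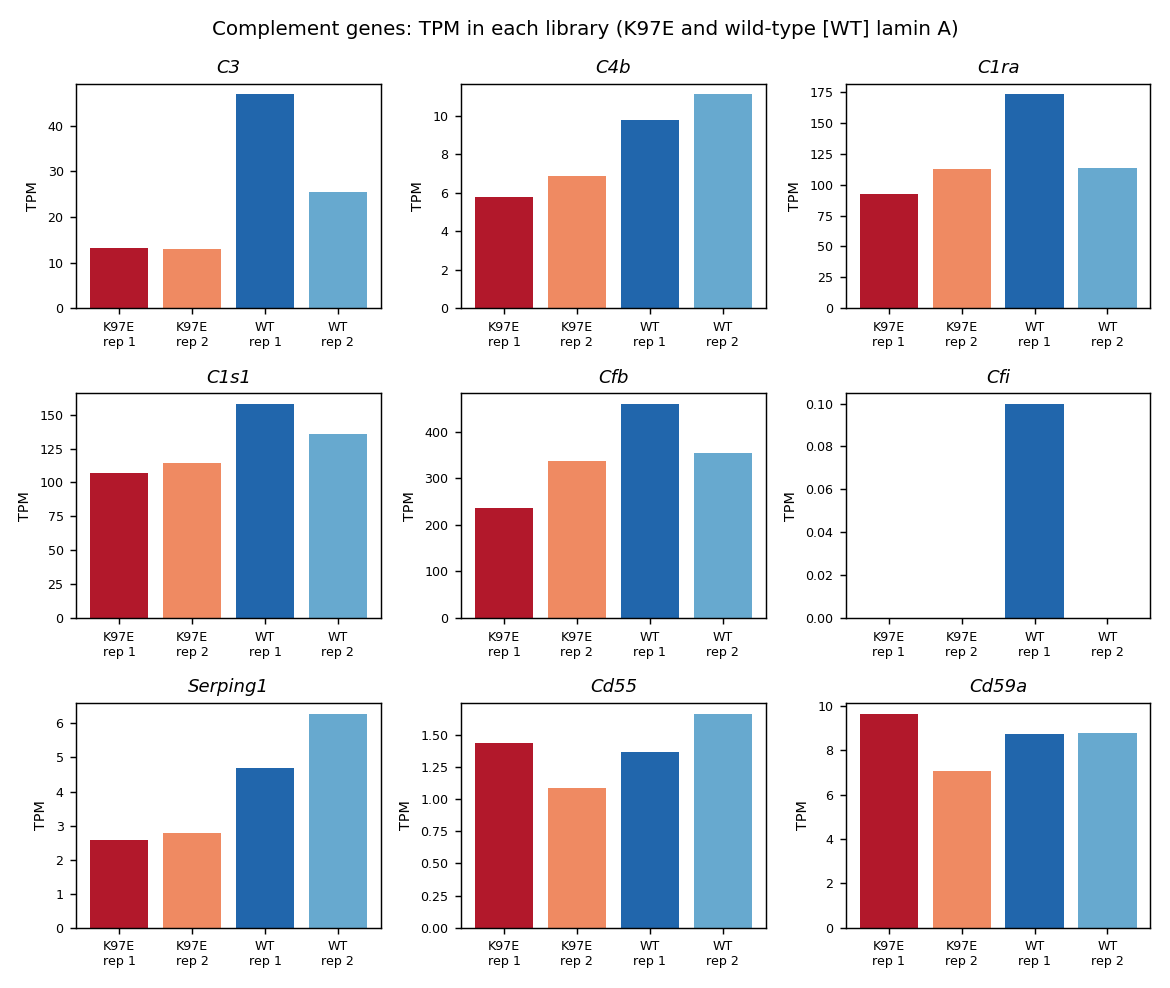
TPM as deposited of the 9 complement genes in each library, on a linear axis from 0 with its own range per gene; red and orange bars are the K97E libraries, blue bars the wild-type (WT) lamin A libraries. C3, C4b, C1ra, C1s1, Cfb and Serping1 had both K97E bars below both wild-type bars, while the bars of Cd55 and Cd59a overlap.

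All 8 tested members were lower by value in K97E cells, where 50.5% of all genes tested were lower, and no member passed the test. In limma over 16304 genes with Benjamini-Hochberg adjustment, 0 of 8 were called, against 0.00613% of all genes tested, which is 1 gene (Mfsd4a, named after its value was seen). At an unadjusted p under 0.05 there were 5 of 8, all lower with K97E, where 3.68% of all genes tested met that mark, 2.54% on the lower side and 1.14% on the higher side. With voom weights on estimated reads 0 of 8 were called as well. Scaled values of the groups did not overlap for 7 of 8 members, each lower with K97E, against 16.8% of all genes tested. The median log2 difference was -0.55 over the members and -0.0017 over all genes tested, and the members' median was -0.37 without wild-type replicate 1. Each difference below is K97E minus wild-type lamin A in log2(TPM + 0.5), a scale that shrinks changes of weakly expressed genes. Every member had an adjusted p of 0.965 (limma), so their differences are given as values. Permuting the labels of 2 against 2 libraries allows no exact two-sided p smaller than 0.33.

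C3, the component that all routes cleave, had the largest log2 difference in size among the tested members. It stood at 13.3 and 13.0 TPM in the K97E libraries, against 46.9 and 25.5 TPM in the wild-type libraries. The K97E libraries lay close together and below both wild-type libraries, which were themselves far apart, with replicate 1 the highest. The K97E mean was 0.364 of the wild-type mean. The log2 difference was -1.42 (SE 0.28, 95% interval -2.11 to -0.73, limma adjusted p = 0.965). Leaving out wild-type replicate 1 gave -0.99. Leaving out wild-type replicate 2 gave -1.85, and only then was C3 called, with a limma adjusted p of 0.0495; over all alternatives its adjusted p ran from 0.0495 to 1.00. C3 (ENSMUSG00000024164) lies on GRCm39 chromosome 17, 57510970 to 57535136, minus strand. Nearly all of its level was credited to ENSMUST00000024988, a transcript of 41 exons.

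Depth along C3 had the same order of groups from end to end. Exons of all C3 transcripts merged into 42 blocks, and in 41 of them both K97E libraries were below both wild-type libraries, with a ratio of group means between 0.255 and 0.563. The remaining block, of 7 bases in a minor transcript, had almost no depth. Blocks share reads and libraries, so they are not independent measurements. Over the 21 blocks nearest the 5′ end the K97E mean was 0.340 of the wild-type mean, and over the 21 nearest the 3′ end 0.359.

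The promoter windows of C3, C1ra, C1s1 and Cd59a are shown because each held a match to a motif that was searched; the window of Cd55 held none. Each window is RefSeq sequence of build GRCm38.p6 (not the build of the expression files), from 250 bases before the annotated start of transcription to 50 bases from it on, written 5′ to 3′ on the strand of the gene. The windows are chr17:57228087-57228386 (minus strand) for C3, chr6:124512371-124512670 (plus) for C1ra, chr6:124542310-124542609 (minus) for C1s1, the first of its 2 starts, and chr2:104095551-104095850 (plus) for Cd59a. Capitals mark every match to one of the motifs named after the sequences.
C3: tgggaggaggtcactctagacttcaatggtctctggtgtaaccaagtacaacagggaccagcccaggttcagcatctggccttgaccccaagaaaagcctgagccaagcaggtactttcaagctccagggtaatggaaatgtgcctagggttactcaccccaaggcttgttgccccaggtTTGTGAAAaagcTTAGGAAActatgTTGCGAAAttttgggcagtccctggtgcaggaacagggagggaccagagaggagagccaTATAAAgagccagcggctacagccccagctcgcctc
C1ra: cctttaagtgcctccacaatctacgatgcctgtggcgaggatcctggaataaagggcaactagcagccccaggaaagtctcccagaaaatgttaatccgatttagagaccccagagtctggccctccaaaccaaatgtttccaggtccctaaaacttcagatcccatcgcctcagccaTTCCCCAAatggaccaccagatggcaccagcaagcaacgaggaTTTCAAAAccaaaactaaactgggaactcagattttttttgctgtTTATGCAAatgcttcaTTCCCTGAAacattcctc
C1s1: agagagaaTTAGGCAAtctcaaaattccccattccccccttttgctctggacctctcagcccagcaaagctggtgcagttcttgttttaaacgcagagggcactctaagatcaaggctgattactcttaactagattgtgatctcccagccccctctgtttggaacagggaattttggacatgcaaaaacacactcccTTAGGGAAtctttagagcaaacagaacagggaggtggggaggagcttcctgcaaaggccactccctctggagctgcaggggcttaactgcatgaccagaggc
Cd59a: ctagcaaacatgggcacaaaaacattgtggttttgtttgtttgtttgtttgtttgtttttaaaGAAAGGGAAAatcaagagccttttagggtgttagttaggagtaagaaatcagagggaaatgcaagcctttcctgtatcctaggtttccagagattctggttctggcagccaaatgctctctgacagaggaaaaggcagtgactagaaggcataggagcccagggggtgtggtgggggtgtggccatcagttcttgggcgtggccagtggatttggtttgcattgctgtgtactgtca
Of the 9 members 5 had a window in the table, C3, C1ra, C1s1, Cd55 and Cd59a, and 32851 windows served as the comparison. Motifs were searched on both strands, except for the TATA box, and overlaps were allowed. Chosen with the lists were the interferon-stimulated response element (GAAA, 2 bases of any kind, GAAA), found in 3.44% of all windows, the STAT site TTCNNNGAA, in 8.3%, and the NF-kB site, in 8.46%. The C/EBP motif TTNNGNAA, in 40.7%, and the TATA box TATAAA, in 8.32%, were added after the sequences were seen. C3 had 3 C/EBP matches, which lie between positions -70 and -38 relative to the annotated start, and C1ra also had 3; 3.6% of all windows held at least as many. Of the 6 windows of these 5 members, C1s1 having 2 that overlap, 4 held a C/EBP match. The TATAAA of C3 lies 14 to 19 bases past the annotated start. C1ra also held 1 match to the STAT motif, and C1s1 held C/EBP matches only. Cd59a held the 1 interferon-response match among the members, and none of the members' windows held the NF-kB motif. A match describes letters in a window and is not evidence that a factor binds there.

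C4b, the mouse C4 that carries the classical route to C3, was also lower with K97E. Its levels were 5.81 and 6.86 TPM in the K97E libraries, against 9.77 and 11.1 TPM in the wild-type libraries. Here the replicates of each group lay near each other and the groups were apart. The log2 difference was -0.74 (SE 0.15, 95% interval -1.11 to -0.36, limma adjusted p = 0.965), and it ran from -0.88 to -0.59 with 1 library left out. In 33 of 40 exon blocks both K97E libraries were below both wild-type libraries. C4b (chromosome 17, 34947354 to 34962856, minus strand) has a near copy, C4a, and 16.5% of the 100-base windows of its main transcript occur letter for letter in a C4a transcript, so reads could have been credited to either. C4a itself stood at 1.34 and 1.83 TPM with K97E and 1.63 and 1.56 TPM with wild-type lamin A, and the sum of both genes at 7.15 and 8.69 TPM with K97E and 11.4 and 12.7 TPM with wild-type lamin A.

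The proteases of the first component, C1ra and C1s1, were abundant, with smaller differences between the groups. C1s1 stood at 107 and 114 TPM in the K97E libraries, against 158 and 136 TPM in the wild-type libraries. Its groups did not overlap, in the gene total or in any of its 12 exon blocks. The log2 difference was -0.46 (SE 0.11, 95% interval -0.75 to -0.17, limma adjusted p = 0.965). C1ra stood at 92.2 and 112.4 TPM with K97E, against 173 and 113.6 TPM with wild-type lamin A. K97E replicate 2 and wild-type replicate 2 thus had nearly the same level, and wild-type replicate 1 stood above the rest. The log2 difference of C1ra was -0.52 (SE 0.23, 95% interval -1.08 to 0.04), and leaving out wild-type replicate 1 gave -0.22, while leaving out wild-type replicate 2 gave -0.82.

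Depth along C1ra was not parallel between libraries. Depth in the 5 exons nearest the 3′ end over that in the 5 nearest the 5′ end was 1.82 and 1.81 in the K97E libraries, against 2.54 and 1.97 in the wild-type libraries. The K97E mean was 0.816 of the wild-type mean at the 5′ end and 0.648 at the 3′ end. Over 108 single-transcript genes with at least 8 exons and a mean of at least 10 TPM, the median of the same measure was 1.09 and 1.08 in the K97E libraries, against 1.16 and 1.11 in the wild-type libraries. Wild-type replicate 1 was thus the highest in both; what part this had in the level of C1ra was not tested. C3 differed slightly the other way, with 1.09 and 1.08 in the K97E libraries, against 1.03 and 1.01 in the wild-type libraries. Cfb had both wild-type libraries higher, with 1.12 and 1.14 in the K97E libraries, against 1.37 and 1.21 in the wild-type libraries. The Cfb K97E mean was 0.748 of the wild-type mean at the 5′ end and 0.655 at the 3′ end. What part this had in the level of Cfb was not tested. Cd59a also had both wild-type libraries higher in this measure, and Cd55 both K97E libraries. In C4b, C1s1 and Serping1 the groups overlapped.

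**Figure D2:**
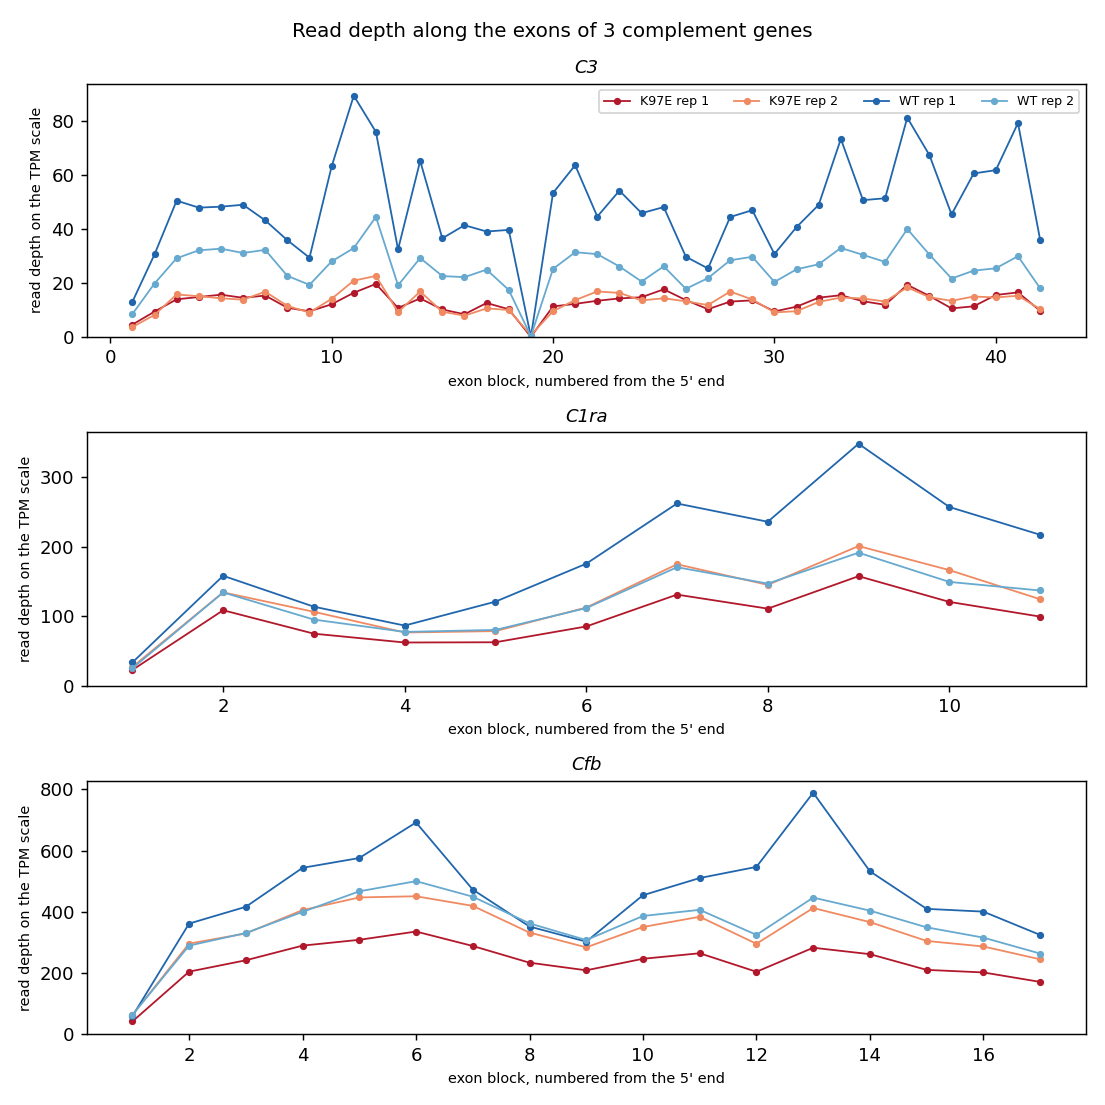
Read depth on the TPM scale, divided by the library's scaling factor, in each exon block of C3, C1ra and Cfb, numbered from the 5′ end; each line is 1 library, with K97E in red and orange and wild-type (WT) lamin A in blue. In C3 the K97E lines lie under both wild-type lines in 41 of 42 blocks, whereas in C1ra and Cfb K97E replicate 2 runs close to wild-type replicate 2.

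C1ra and C1s1 sit side by side on chromosome 6, at 124489364 to 124500402 on the plus strand and 124507304 to 124519318 on the minus strand, next to their copies C1rb and C1s2. Of the 100-base windows of the C1ra transcript 34.5% occur in C1rb, and of those of the main C1s1 transcript 7.9% occur in C1s2. C1rb stood at 34.0 and 43.5 TPM with K97E, against 56.3 and 42.7 TPM with wild-type lamin A, so its groups overlapped. C1s2 stood at 15.0 and 15.6 TPM with K97E, against 21.9 and 18.9 TPM with wild-type lamin A. For C1s2 the log2 difference came to -0.46 (95% interval -0.75 to -0.17, limma adjusted p = 0.965). How far shared reads set the levels of the copies was not tested. The sums of gene and copy were 126 and 156 TPM with K97E against 229.5 and 156 TPM with wild-type lamin A for C1ra with C1rb, and 122 and 130 TPM with K97E against 179.7 and 155 TPM with wild-type lamin A for C1s1 with C1s2.

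Cfb encodes factor B, the protease of the alternative route, and was the most abundant member. It stood at 237 and 337 TPM in the K97E libraries, against 459.7 and 355 TPM in the wild-type libraries. The groups were separated only narrowly, between K97E replicate 2 and wild-type replicate 2. The log2 difference was -0.57 (SE 0.22, 95% interval -1.13 to -0.01, limma adjusted p = 0.965), at -0.29 without K97E replicate 1 and -0.86 without K97E replicate 2. In 14 of 17 exon blocks both K97E libraries were below both wild-type libraries.

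How the level of Cfb was divided among its transcripts varied widely between libraries of the same group. ENSMUST00000154526, which starts farther in than ENSMUST00000025229, took 31.9% and 63.3% of the Cfb level in the K97E libraries, against 77.4% and 60.6% in the wild-type libraries. ENSMUST00000025229 took 41.8% and 16.2% with K97E, against 7.38% and 21.8% with wild-type lamin A. None of the 8 Cfb transcripts has an exon to itself, so StringTie divided shared reads by its model, and these shares carry no direct count. The first exon block, where the transcripts part, had depths of 42.2 and 63.4 on the TPM scale with K97E, against 59.4 and 63.6 with wild-type lamin A. In C1s1 the transcript ENSMUST00000160505 took 50.6% and 44.4% of the level with K97E, against 75.4% and 48.1% with wild-type lamin A. For C1s1 ENSMUST00000162443 took 45.3% and 50.8% with K97E, against 19.5% and 47.9% with wild-type lamin A. The shares of ENSMUST00000154526 and ENSMUST00000160505 were largest in wild-type replicate 1. Neither led in every library: ENSMUST00000025229 was ahead in K97E replicate 1, and ENSMUST00000162443 in K97E replicate 2. Cfb (chromosome 17, 35075350 to 35081494, minus strand) also shares 2246 exon bases with Gm20547, a predicted gene on the same strand that was at 0 in every library.

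**Figure D3:**
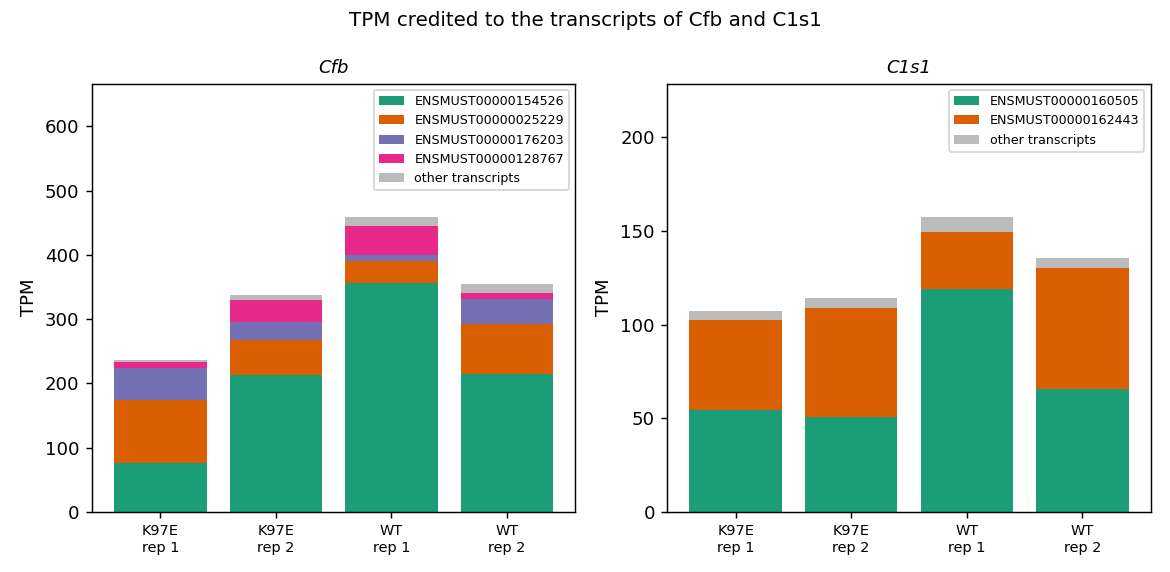
TPM credited to the transcripts of Cfb and C1s1 in each library, stacked to the gene total, with the K97E libraries on the left and wild-type (WT) lamin A on the right. Wild-type replicate 1 had the tallest segment for ENSMUST00000154526 of Cfb, at 356 TPM, and for ENSMUST00000160505 of C1s1, at 119 TPM.

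Serping1 encodes the C1 inhibitor, the soluble brake on C1r and C1s, and was lower by value alongside the proteases it blocks. It stood at 2.59 and 2.78 TPM in the K97E libraries, against 4.70 and 6.28 TPM in the wild-type libraries. The K97E libraries were close together and below both wild-type libraries. The K97E mean was 0.489 of the wild-type mean, and the log2 difference was -0.95 (SE 0.18, 95% interval -1.40 to -0.50, limma adjusted p = 0.965), from -1.14 to -0.76 with 1 library left out. All 7 of its covered exon blocks had both K97E libraries below both wild-type libraries. Serping1 (chromosome 2, 84595731 to 84605788, minus strand) rested on 342 and 544 estimated reads in the wild-type libraries, fewer with K97E, against 32497 or more for Cfb.

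Cd59a and Cd55 encode regulators on the cell membrane, and their intervals included 0. Cd59a encodes a lipid-anchored protein that blocks the final pore. It stood at 9.63 and 7.08 TPM in the K97E libraries, against 8.72 and 8.78 TPM in the wild-type libraries, so the wild-type libraries fell between the K97E libraries. Its log2 difference was -0.13 (SE 0.15, 95% interval -0.51 to 0.25, limma adjusted p = 0.965), and it turned to 0.044 without K97E replicate 2. Cd55, decay-accelerating factor, which takes apart the enzymes that cleave C3, stood at 1.43 and 1.09 TPM with K97E, against 1.37 and 1.66 TPM with wild-type lamin A. Its deposited values overlapped, while its scaled values were just apart. The log2 difference of Cd55 was -0.24 (SE 0.20, 95% interval -0.74 to 0.26, limma adjusted p = 0.965). The lowest library had 128 estimated reads of Cd55. Both intervals reach below the estimate of C1s1, so the data do not show that these regulators kept their level. Whether membrane regulators and soluble components differed from each other was not tested.

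Cd55 (chromosome 1, 130366764 to 130390481, minus strand) and Cd59a (chromosome 2, 103926146 to 103945699, plus strand) each have a neighbouring copy. Cd55b was at 0 in all libraries, and 6.86% of the 100-base windows of the main Cd55 transcript occur in it. Cd59b stood at 0.90 and 0 TPM with K97E, against 0 and 1.02 TPM with wild-type lamin A, and only 0.314% of the 100-base windows of Cd59a occur in it.

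Cfi, factor I, the protease that inactivates C3b and C4b, was not detectably expressed. It was at 0 in both K97E libraries and in wild-type replicate 2, and at 0.0997 TPM in wild-type replicate 1, which is 8.78 estimated reads. It stayed under the mean of 0.5 TPM and was not tested. Cfi lies on chromosome 3, 129629533 to 129668981, plus strand.

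**Figure D4:**
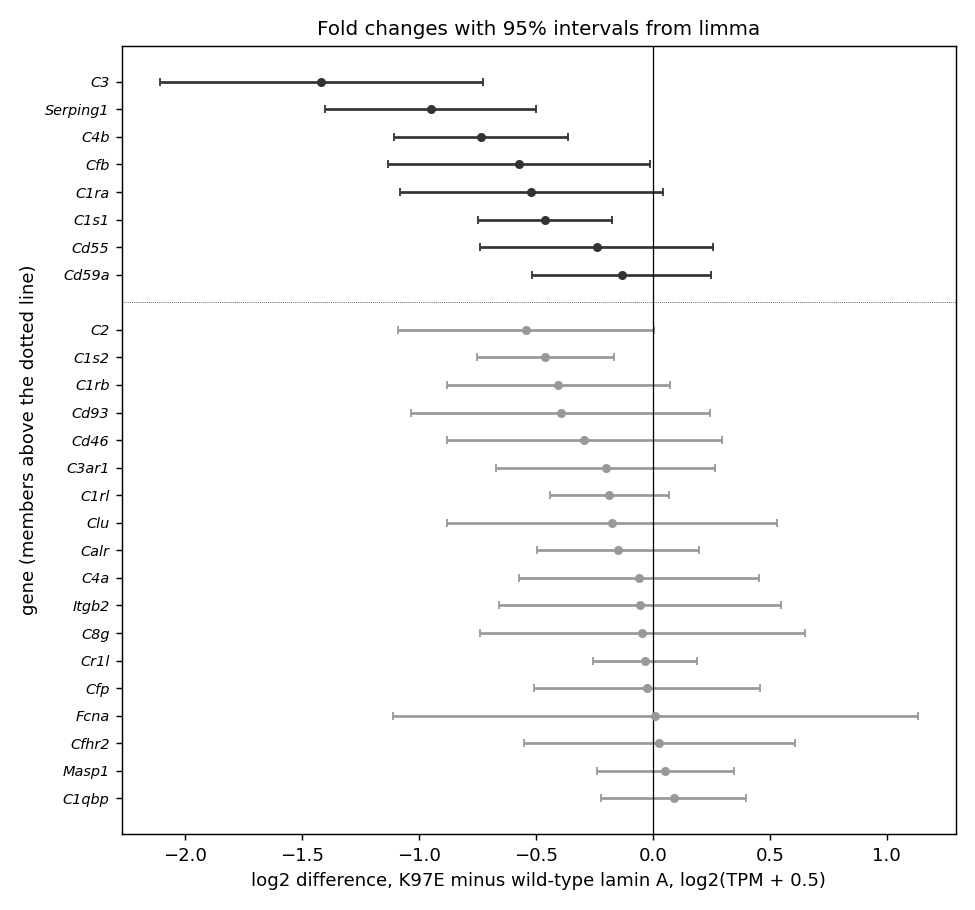
Log2 difference, K97E minus wild-type lamin A, on the log2(TPM + 0.5) scale with its 95% interval from limma, for the 8 tested members (black) and 18 other tested complement genes (grey). All 8 members lie left of 0, from -1.42 for C3 to -0.13 for Cd59a, whereas the other genes run from -0.54 to 0.09.

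The rest of the pathway gave a wider view of the same cells. Of 49 other complement genes, from the recognition molecules to the pore and the receptors, 18 reached the mean of 0.5 TPM and 14 were at 0 in every library, among them the C1q genes C1qa, C1qb and C1qc, which encode the molecule that C1r and C1s attach to. In limma 0 of 18 were called after adjustment, with voom weights 0 as well, and 1 of 18, C1s2, had an unadjusted p under 0.05, lower with K97E, against 2.54% of all genes tested. By value 14 of 18 were lower and 4 higher, with a median log2 difference of -0.10. Scaled groups did not overlap for 4 of 18, C1s2, C1rl, C2 and Cd46, each lower with K97E, against 16.8% of all genes tested; C2 and Cd46 are named here after their values were seen. C2, the partner of C4 next to Cfb on chromosome 17, stood at 1.09 and 0.69 TPM with K97E, against 1.55 and 1.35 TPM with wild-type lamin A.

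Several other genes of the pathway were expressed and overlapped between the groups. Masp1, a protease of the lectin route, stood at 232 and 205 TPM with K97E, against 219.6 and 186 TPM with wild-type lamin A. Cr1l, which encodes the rodent membrane regulator Crry, stood at 32.2 and 31.2 TPM with K97E, against 32.1 and 30.3 TPM with wild-type lamin A. Of the membrane regulators measured it was thus the most abundant, and its log2 difference was -0.03 (SE 0.09, 95% interval -0.26 to 0.19, limma adjusted p = 0.985). C1qbp and Calr, proteins that bind C1q and have other roles in mitochondria and the endoplasmic reticulum, had log2 differences of 0.09 and -0.15, and C1rl, a C1r-like protease whose groups did not overlap, of -0.19. Fcna, a ficolin that recognizes sugars in the lectin route, varied widely between replicates, at 7.73 and 4.05 TPM with K97E, against 3.36 and 8.37 TPM with wild-type lamin A. None of these passed the test.

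The genes whose pattern over the 4 libraries was most like that of C3 were AW112010, Eif1ad11, Bc1, Eif1ad16 and Eif1ad12. They came out of 10098 other named genes with a mean of at least 5 TPM. Genes without a symbol and those with predicted-gene, Rik, Mir or certain clone-type symbols were left out of that set. The measure was the distance between log2 values centred on each gene's own mean, and it lay between 0.386 and 0.549 for these genes. Eif1ad genes are near copies of one another and can share reads. The member nearest to C3 was C1ra, at a distance of 0.944, which placed it at rank 46, followed by Cfb at 0.990 and rank 61. With 4 libraries many genes can follow one pattern, so the ranking is a description.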

How the data were processed

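RNA-seq of 4 libraries, all C2C12 per the labels' cell line field, was analysed from 1 transcript file per library. Per the file headers, the authors ran StringTie 2.1.7 on annotated transcripts of Ensembl release 104 with no strand option, and the deposited attributes give coverage, FPKM and TPM as the authors' estimates. Build GRCm39 and the tools FastQC, HISAT2, DESeq2 and SAMtools come from the submitters' processing notes, which give them no role here. No read counts were in the files, so no counting interval was computed; estimated reads are coverage times transcript length over 100 bases. Reads of overlapping genes on opposite strands may be credited to either.

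TPM of the 142434 transcripts was summed by gene ID. Cfi carries its name under another attribute in K97E replicate 2 and was joined by ID. TPM was divided by median-of-ratios factors (0.98 to 1.04), 0.5 was added, log2 taken, and 16304 genes with a mean of at least 0.5 TPM were fitted with limma 3.58.1 in R 4.3.3 (trend, two-sided, Benjamini-Hochberg adjustment, threshold 0.05). Means and SDs are of deposited TPM; overlap of groups is of scaled TPM unless stated. The fit was also run on values simulated from its own model with known changes, which cannot show whether that model holds for these data. Exon blocks are merged exons of all transcripts of a gene. Copies were compared on GENCODE M21 transcripts matched by transcript ID.

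Members and lists were chosen with earlier results of these data known. All members are named; of 49 other complement genes those with an unadjusted p under 0.05 and then the most abundant were named up to 8. A gene of the wider pathway is not reported here. Alternatives covered pseudocounts, filters, scalings, FPKM, eBayes settings, voom, a replicate block and each library left out. Python 3.11.15, pandas 2.3.3 and matplotlib 3.10.9 were used.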

Additional observations from a re-analysis of the deposited data

How the results depend on the processing

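Over the alternatives, C3, C4b, C1ra, C1s1, Cfb, Serping1 and Cd55 stayed lower with K97E and were not called, except that C3 was called without wild-type replicate 2. The count of called members therefore ran from 0 to 1 with 1 library left out and was 0 under the other settings (Serping1 and Cd55 were not tested with a mean of at least 5 TPM), and the count of other complement genes called was 0 throughout. The median log2 difference of the members ran from -0.78 to -0.37 with 1 library left out and from -0.55 to -0.49 under the other settings. Over all genes 1 was called; the count was 0 with no filter, 2 with TPM as deposited, 2 with eBayes without trend, 4 with voom weights and 0 with the replicate block, and between 0 and 18 with 1 library left out. The replicate block called 0 members. Same-numbered libraries share only a number: the correlation of their deviations was -0.14, and a crossed pairing, chosen after seeing the data, called 30 genes, 0 of them members. With 1 library left out directions turned for Cd59a (-0.31 to 0.044, higher without K97E replicate 2), Masp1 (-0.068 to 0.17, lower without wild-type replicate 2; also -0.0014 when K97E replicate 1 was left out), C1qbp (-0.035 to 0.21, lower without K97E replicate 2), Fcna (-0.59 to 0.61, lower without wild-type replicate 1; also -0.39 when K97E replicate 1 was left out) and Cr1l (-0.075 to 0.0057, higher without wild-type replicate 1). Cr1l was also at 0.024 with TPM as deposited. None of these was called. With 1 library left out an arm had a single sample, which the fit assumes to vary like the other group. Among the members depth was lowest for Cfi, with at most 8.78 estimated reads in a library, and for Cd55, with 128 in its lowest library; what part depth had in the width of the intervals was not tested. The cause of these shifts was not tested.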
